A study of Mus musculus with 9 samples.

Results

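Transcripts of 10 genes of the Notch pathway were followed in sorted cells of mouse somites: the ligand genes Dll1, Dll3, Jag1 and Jag2, the glycosyltransferase gene Lfng, and the effector genes Hes1, Hes5, Hey1, Heyl and Nrarp. They were taken by name, with every array probe set annotated to 1 of them alone, which gave 18 of 45037 probe sets tested and 10 of 18193 genes measured. Hes1, which encodes a repressor induced by Notch, was the 1 gene of the 10 that differed in all 3 comparisons between groups, highest in Pax3 positive cells that carry the PAX3-FKHR fusion. Heyl, which encodes another repressor of this kind, showed the largest difference of the 10, being 5.01-fold higher in GFP positive cells of Pax3 GFP/+ embryos than in GFP- cells. The ligand genes Dll3, Jag1 and Jag2, together with Hes5 and Nrarp, were lower in Pax3 positive cells on their brightest probe sets. The dimmer probe sets of Jag1, Hes5 and Nrarp were not called.

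The study set out to find targets of Pax3, a transcription factor with a paired box and a homeodomain that marks the dermomyotome, the epithelial upper part of the somite from which trunk and limb muscle derives. Cells were sorted by flow cytometry from the hypaxial part of interlimb somites at embryonic day 9.5, and their RNA was amplified and hybridized to Affymetrix arrays, 3 arrays in each of 3 groups. The first group is GFP positive cells of Pax3 PAX3-FKHR/GFP embryos, in which 1 Pax3 allele carries GFP and the other, after a cross with a PGK-Cre line, produces PAX3-FKHR, a fusion of PAX3 with the forkhead factor FOXO1 that acts as a gain of function, so that no normal Pax3 allele is left. The second group is GFP positive cells of Pax3 GFP/+ embryos, which keep 1 normal Pax3 allele. The third group is GFP- cells of the same region, whose Pax3 genotype is not in the labels and which the study describes mainly as coming from GFP/+ embryos. The groups are written here as PAX3-FKHR/GFP, GFP/+ and GFP-. Both GFP positive groups thus lack at least 1 normal Pax3 copy, PGK-Cre is active throughout the embryo rather than in somites alone, and each sample is a pool of many embryos. The study allows that migrating neural crest cells, which also express Pax3, may have been present. The treatment protocol in the labels speaks of forelimb buds, whereas title, source and tissue all give somites.

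Notch receptors are activated by Delta and Jagged ligands on a neighbouring cell, which leads to cleavage of the receptor and to entry of its intracellular domain into the nucleus. There it joins the DNA-binding protein RBPJ and induces genes such as those of the Hes and Hey families, whose products repress transcription, and Nrarp, whose product damps the signal. In the paraxial mesoderm the pathway sets the rhythm and the borders of segmentation, and later it holds muscle progenitors in an undifferentiated state.

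Array medians were 4.63 to 4.68 on the log2 scale, and Pearson correlations within groups over all probe sets were 0.996 to 0.998. Values are log2 expression values from RMA, in which a step of 1 is a doubling, and those of different probe sets are not compared with each other. With 3 arrays per group precision is limited, and each p-value reflects no more than the spread among these pooled samples. Pax3 itself, read as a check of the labels, had mean log2 values of 8.29 in PAX3-FKHR/GFP, 9.20 in GFP/+ and 4.50 in GFP- cells, the last below the median of every array. Its 3 probe sets thus still read 53.2% to 57.8% of their GFP/+ level with PAX3-FKHR, where no normal Pax3 allele is left. Which transcripts give that signal was not tested. The source label names the dermomyotome for GFP- cells too. In these, however, the mean over 9 dermomyotome markers was 5.03 to 5.05 per sample. It was 7.64 to 7.68 in GFP/+ and 7.97 to 8.18 in PAX3-FKHR/GFP cells. Pax3, whose GFP allele the cells were sorted by, is among these markers.

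**Figure D1:**
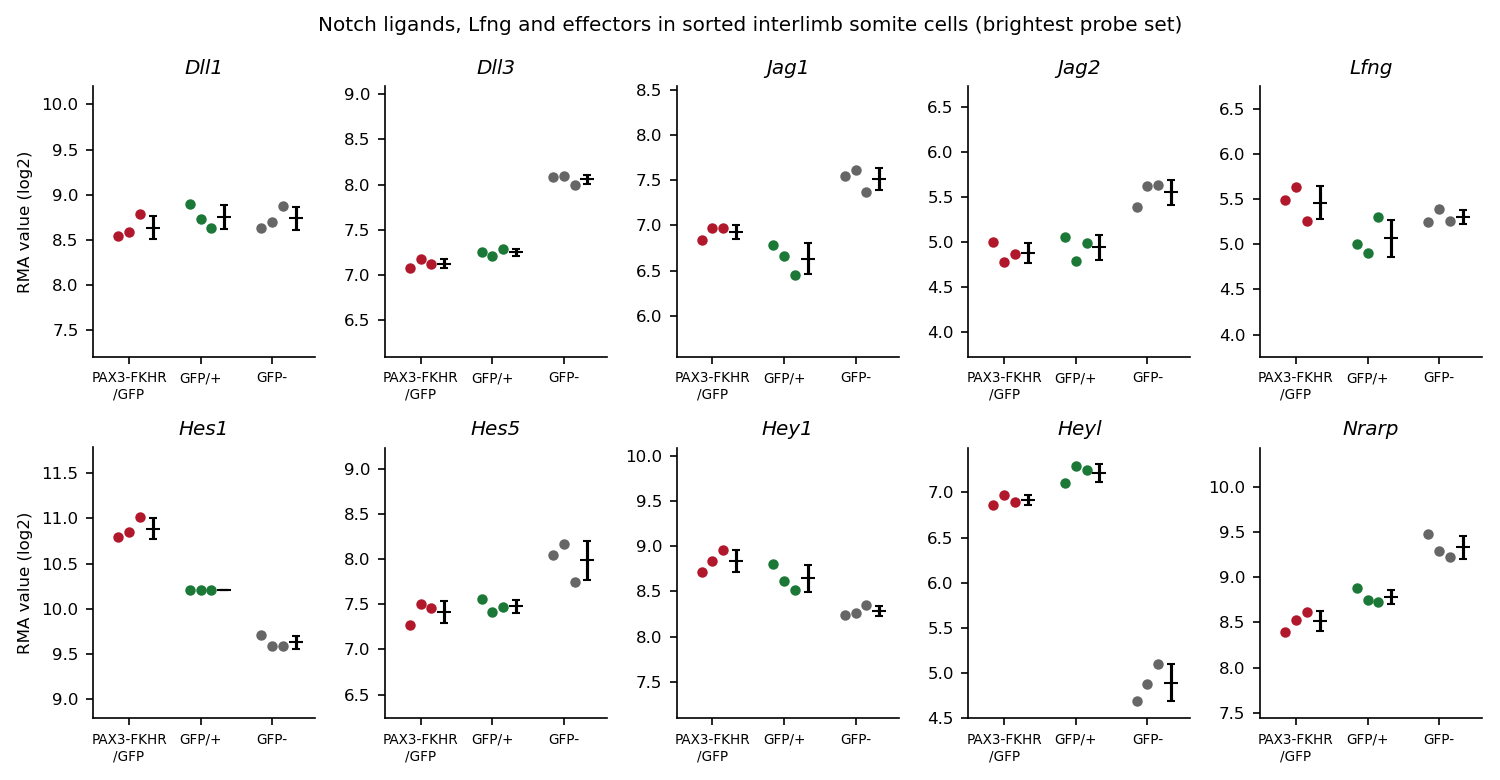
Log2 RMA value of each of the 10 genes, read from its brightest probe set, by sample and group. Points are samples, and bars give the mean and SD (n = 3). Every panel spans the same log2 range. Hes1 steps down from PAX3-FKHR/GFP (mean 10.89) through GFP/+ (10.20) to GFP- cells (9.63), Heyl lies far lower in GFP- cells (4.89), and Dll3, Jag1, Jag2, Hes5 and Nrarp lie highest in GFP- cells.

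A gene was read from its probe set with the highest mean log2 value over the 9 arrays. It was called higher or lower at an adjusted p under 0.05 by limma, adjusted over all 45037 probe sets, provided that the groups differed by 0.5 or more on the log2 scale, which is 1.41-fold. Between PAX3-FKHR/GFP and GFP/+ cells 1 of the 10 genes was called higher and 0 lower, where 1.31% of all genes were called higher and 0.715% lower. At an unadjusted p under 0.05 there were 5 genes, 3 higher and 2 lower (11.1% of all genes in either direction). A local pooled error test, the one the study's methods name, gave 1 higher and 0 lower, here without the study's filter on absence calls. The study lists Hes1 as raised and Dll1 and Dll3 as lowered with PAX3-FKHR, in somites, limb buds or both. Between GFP/+ and GFP- cells 2 were called higher and 5 lower, against 1.92% higher and 5.05% lower of all genes. Between PAX3-FKHR/GFP and GFP- cells 3 were called higher and 5 lower, against 2.63% and 5.2% of all genes. These comparisons share arrays, so they are not independent of each other. Counted as probe sets, 1 of 18 was called higher and 0 lower in the first comparison (0.884% and 0.473% of all probe sets), 3 higher and 6 lower in the second (1.42% and 3.24%), and 4 higher and 6 lower in the last (1.99% and 3.36%). The median log2 difference over the 10 genes was -0.06, -0.37 and -0.34 in the 3 comparisons, and that over all genes was within 0.01 of 0. The genes had been chosen with earlier results of these data known.

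**Figure D2:**
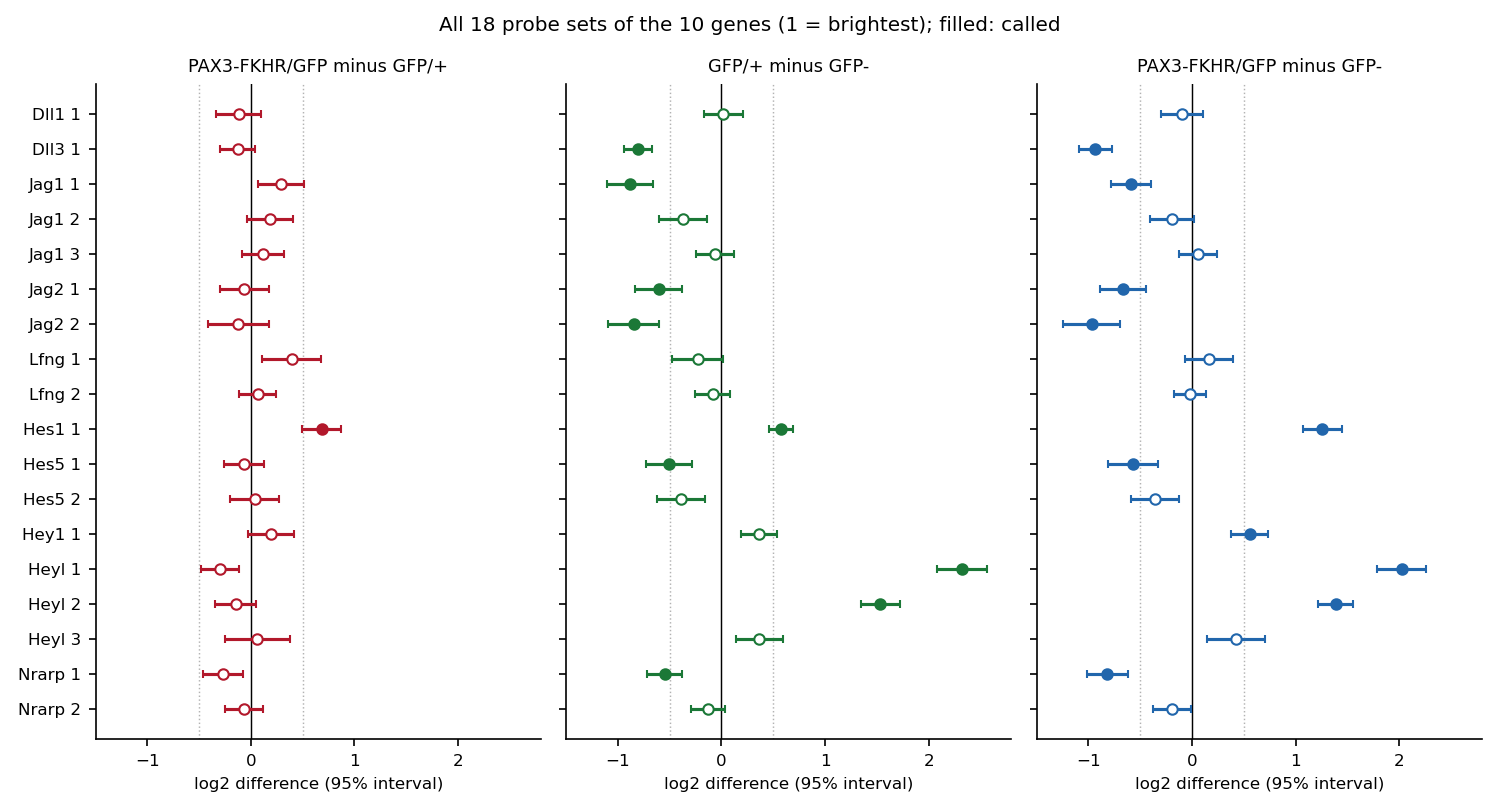
Log2 difference between groups for all 18 probe sets of the 10 genes in the 3 comparisons, with its 95% interval from limma. The number after a gene orders its probe sets from the brightest (1), filled points were called, and dotted lines mark the log2 limit of 0.5. In the comparison with PAX3-FKHR only Hes1 is filled (0.68), while Heyl stands at 2.32 and 2.02 against GFP- cells.

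Among the ligand genes Dll1, which encodes the main Delta ligand of somite formation, did not separate the groups. Its log2 values were 8.54, 8.58 and 8.78 in PAX3-FKHR/GFP, 8.90, 8.73 and 8.63 in GFP/+ and 8.64, 8.70 and 8.88 in GFP- cells. All 3 groups overlapped. The log2 difference between PAX3-FKHR/GFP and GFP/+ cells was -0.12 (95% interval -0.33 to 0.09, limma adjusted p = 0.773), and that between GFP/+ and GFP- cells was 0.02 (-0.17 to 0.21, adjusted p = 0.937).

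Dll3 encodes a divergent Delta family member that acts within the cell and is needed for segmentation. Its log2 values were 7.08, 7.18 and 7.12 in PAX3-FKHR/GFP, 7.25, 7.21 and 7.29 in GFP/+ and 8.08, 8.09 and 7.99 in GFP- cells. The GFP- samples lay above all others with a narrow spread in each group. Dll3 was 1.75-fold lower in GFP/+ than in GFP- cells (log2 difference -0.81, SE 0.061, limma adjusted p = 1.46e-05) and 1.91-fold lower in PAX3-FKHR/GFP cells (-0.93, SE 0.072, adjusted p = 5.45e-06). Between the GFP positive groups the 3 values with PAX3-FKHR were all lower, but the difference of -0.13 was not called (adjusted p = 0.652).

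Jag1 and Jag2 encode the Jagged ligands. The brightest of 3 Jag1 probe sets stood at 6.84, 6.97 and 6.97 in PAX3-FKHR/GFP, 6.79, 6.66 and 6.45 in GFP/+ and 7.55, 7.62 and 7.38 in GFP- cells. The 3 groups did not overlap, and GFP/+ cells were lowest. Jag1 was 1.84-fold lower in GFP/+ than in GFP- cells (-0.88, SE 0.099, adjusted p = 0.000257) and 1.51-fold lower in PAX3-FKHR/GFP cells (-0.59, SE 0.086, adjusted p = 0.000855). The difference of 0.29 between PAX3-FKHR/GFP and GFP/+ cells was not called (limma adjusted p = 0.293). The other Jag1 probe sets had means of 4.02 to 4.56, below the median of every array, and neither was called. With the mean over all 3 probe sets Jag1 was under the fold limit (-0.44 and -0.24 against GFP- cells).

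Both Jag2 probe sets pointed the same way. The brighter gave 5.001, 4.78 and 4.86 in PAX3-FKHR/GFP, 5.05, 4.79 and 4.99 in GFP/+ and 5.39, 5.63 and 5.64 in GFP- cells. The GFP positive groups overlapped with each other, and the GFP- samples lay above both. The log2 differences from GFP- cells were -0.61 (SE 0.10, adjusted p = 0.00402) in GFP/+ and -0.67 (SE 0.10, adjusted p = 0.00113) in PAX3-FKHR/GFP cells. The dimmer probe set gave -0.85 and -0.97 and was called as well. Its means were 4.16, 4.29 and 5.13 in the 3 groups, so both GFP positive groups were below the array median.

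Lfng encodes lunatic fringe, which adds sugars to Notch receptors and so tunes their response to Delta and Jagged ligands. Its brighter probe set gave 5.49, 5.63 and 5.26 in PAX3-FKHR/GFP, 4.9998, 4.90 and 5.30 in GFP/+ and 5.24, 5.39 and 5.26 in GFP- cells. The groups overlapped in each comparison. The largest difference, 0.39 between PAX3-FKHR/GFP and GFP/+ cells, was not called (95% interval 0.11 to 0.68, limma adjusted p = 0.255). The dimmer Lfng probe set lay between 3.40 and 3.46 in every sample but GFP/+ replicate 1, at 3.21, and held the same value, 3.41, in all 3 PAX3-FKHR/GFP arrays.

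Of the effector genes, Hes1 encodes a basic helix-loop-helix repressor that can also be induced by other signals. Its single probe set gave 10.79, 10.85 and 11.02 in PAX3-FKHR/GFP cells and 9.71, 9.58 and 9.59 in GFP- cells. In the 3 GFP/+ arrays it held the same value, 10.20, to the last digit deposited. The 3 groups were separate, with GFP/+ cells between the others. With PAX3-FKHR Hes1 was 1.61-fold above its GFP/+ level (log2 difference 0.68, SE 0.085, 95% interval 0.50 to 0.87, limma adjusted p = 0.00164). It was 1.49-fold higher in GFP/+ than in GFP- cells (0.58, SE 0.053, adjusted p = 6.45e-05) and 2.39-fold above GFP- cells with PAX3-FKHR (1.26, SE 0.085, adjusted p = 1.71e-06). The SD of 0 in GFP/+ cells is no measure of their spread. Such a single value over all 3 arrays was found in 395 of 45037 probe sets in GFP/+, 353 in PAX3-FKHR/GFP and 449 in GFP- cells, and the standard errors of limma take part of their size from probe sets of like brightness. Hes1 kept its call in each comparison when any 1 array was left out. Leaving out a GFP/+ array could not move the difference, which stayed at 0.68 against PAX3-FKHR/GFP cells, because the 3 GFP/+ values are the same.

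Heyl, a Hey family gene of the somite and of smooth muscle precursors, separated GFP positive from GFP- cells most widely among the 10. Its brightest probe set gave 6.86, 6.97 and 6.90 in PAX3-FKHR/GFP, 7.10, 7.29 and 7.25 in GFP/+ and 4.69, 4.88 and 5.10 in GFP- cells. The lowest GFP positive sample stood far above the highest GFP- sample. Heyl was 5.01-fold higher in GFP/+ than in GFP- cells (2.32, SE 0.11, limma adjusted p = 4.03e-07) and 4.07-fold higher in PAX3-FKHR/GFP cells (2.02, SE 0.11, adjusted p = 1.89e-07). The next probe set gave 2.90-fold and 2.61-fold and was called too, and the dimmest, with means of 4.26 to 4.69, gave 0.36 and 0.43 and was not called (adjusted p = 0.054 and 0.0702). The 3 PAX3-FKHR/GFP values of the brightest probe set all lay below those of GFP/+ cells, but the difference of -0.30 was not called (adjusted p = 0.148). The next probe set gave -0.15 and the dimmest 0.06, with overlapping groups.

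Hey1 encodes a related repressor. Its single probe set gave 8.71, 8.84 and 8.96 in PAX3-FKHR/GFP, 8.81, 8.61 and 8.51 in GFP/+ and 8.24, 8.26 and 8.35 in GFP- cells. The GFP positive groups overlapped, and both lay above all GFP- samples. With PAX3-FKHR Hey1 stood 1.47-fold above GFP- cells (0.55 on the log2 scale, SE 0.082, limma adjusted p = 0.00100). Without PAX3-FKHR/GFP replicate 3 the difference was 0.49, just under the fold limit. Between GFP/+ and GFP- cells the difference of 0.36 passed the test (adjusted p = 0.0181) but not the fold limit.

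Hes5 and Nrarp, common readouts of Notch activity, went the other way. Hes5, a repressor gene known for its part in neural progenitors, gave 7.27, 7.51 and 7.46 in PAX3-FKHR/GFP, 7.56, 7.42 and 7.47 in GFP/+ and 8.05, 8.16 and 7.75 in GFP- cells on its brighter probe set, of a type that can hybridize with related transcripts. The GFP- samples lay above all others. Hes5 was 1.42-fold lower in GFP/+ (log2 difference -0.51, SE 0.10, limma adjusted p = 0.0108) and 1.49-fold lower in PAX3-FKHR/GFP cells (-0.57, SE 0.11, adjusted p = 0.00607) than in GFP- cells. The first call was lost without GFP/+ replicate 2 or 3 or GFP- replicate 1 or 2 (-0.42 to -0.50, adjusted p 0.0643 to 0.0731), and the second without GFP- replicate 2 (-0.48, adjusted p = 0.051). The dimmer Hes5 probe set gave -0.39 and -0.36 and was not called, and the mean over both was under the fold limit (-0.45 and -0.47). Repeated quantile normalization also left the first difference under that limit (-0.48).

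Nrarp, whose product binds the Notch intracellular domain complex and limits it, gave 8.40, 8.53 and 8.62 in PAX3-FKHR/GFP, 8.88, 8.75 and 8.73 in GFP/+ and 9.48, 9.29 and 9.23 in GFP- cells. The 3 groups did not overlap. Nrarp was 1.46-fold lower in GFP/+ than in GFP- cells (-0.55, SE 0.075, limma adjusted p = 0.00106) and 1.76-fold lower in PAX3-FKHR/GFP cells (-0.82, SE 0.090, adjusted p = 0.000106). Without GFP- replicate 1 the first difference was -0.47, under the fold limit. Between the GFP positive groups -0.27 was not called (adjusted p = 0.237). The dimmer Nrarp probe set gave -0.13 and -0.20 against GFP- cells, with overlapping groups, and was not called. With the mean over both probe sets Nrarp lost its call in GFP/+ cells (-0.34) and kept that in PAX3-FKHR/GFP cells (-0.51).

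The levels of the 10 genes in the 3 groups thus fell into a few orders. For Hes1 each step from PAX3-FKHR/GFP through GFP/+ to GFP- cells was called. For Heyl, Dll3, Jag1, Jag2, Hes5 and Nrarp both GFP positive groups differed from GFP- cells on the brightest probe set. The neighbours PAX3-FKHR/GFP and GFP/+ were not called apart for these genes. With the mean over a gene's probe sets Jag1, Hes5 and Nrarp lost the call in GFP/+ cells. For Hey1 only the outer groups were called apart, and for Dll1 and Lfng none. In 5 of the 10 genes (Dll3, Jag1, Hes1, Heyl and Nrarp) the 3 values with PAX3-FKHR all lay beyond those of GFP/+ cells, as they did in 14.6% of all genes. Against GFP- cells this held for 8 genes in GFP/+ (28.2% of all genes) and 8 in PAX3-FKHR/GFP cells (25.5%). These are bulk samples, in which fewer cells of a type and less RNA per cell cannot be told apart.

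The stretches before the start sites of Hes5, Nrarp and Lfng are shown because the first 2 of them were lower together in GFP positive cells and because Hes5 and Lfng hold the letters bound by RBPJ. They are the 250 bases upstream of the RefSeq start site in GRCm38.p6, with the RBPJ letters GTGGGAA or GTGAGAA, searched on both strands, in capitals. Of the 10 genes 7 had an entry in the RefSeq table used. Hes1, Hey1 and Heyl had none, so nothing before their start sites was searched.
Hes5, chr4:154960673-154960922, plus strand: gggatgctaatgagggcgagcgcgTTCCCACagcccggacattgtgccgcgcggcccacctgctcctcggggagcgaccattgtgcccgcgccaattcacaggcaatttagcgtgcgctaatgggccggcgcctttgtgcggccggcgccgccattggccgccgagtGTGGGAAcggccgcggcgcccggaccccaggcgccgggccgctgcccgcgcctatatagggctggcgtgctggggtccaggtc
Nrarp, chr2:25180508-25180757, plus strand: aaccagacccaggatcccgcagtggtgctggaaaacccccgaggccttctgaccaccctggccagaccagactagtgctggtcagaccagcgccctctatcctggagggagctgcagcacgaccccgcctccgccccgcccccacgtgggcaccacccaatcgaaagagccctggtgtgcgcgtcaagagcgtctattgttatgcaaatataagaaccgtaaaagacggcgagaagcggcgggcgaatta
Lfng, chr5:140607091-140607340, plus strand: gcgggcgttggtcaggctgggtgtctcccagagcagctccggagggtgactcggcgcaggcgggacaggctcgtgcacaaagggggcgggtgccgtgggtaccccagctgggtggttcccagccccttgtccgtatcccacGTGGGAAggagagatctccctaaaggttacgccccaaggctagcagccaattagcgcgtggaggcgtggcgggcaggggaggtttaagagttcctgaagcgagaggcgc
Hes5 has 2 matches, 1 on each strand, spanning bases 220 to 226 and 77 to 83 before the start, and Lfng has 1, at 103 to 109 bases. Nrarp has 0 matches, as do Dll1, Dll3, Jag1 and Jag2. The RBPJ letters occur in 9.01% of 32851 such windows of all genes. The letters CACGTG, an E-box that Hes and Hey proteins can bind, occur once in the windows of Nrarp (bases 103 to 108) and Lfng (107 to 112, overlapping the RBPJ letters), and in 6.02% of all windows. The paired domain letters GTCACGC were searched on both strands for Pax3. They occur in 0 of the windows of the 7 members with an entry, which leaves out Hes1, Hey1 and Heyl, and in 1.78% of all windows. Of the genes with the RBPJ letters, Hes5 was called lower in both GFP positive groups, and Lfng was not called in any comparison. On their brighter probe sets the log2 differences between GFP/+ and GFP- cells were -0.51 for Hes5 and -0.23 for Lfng. Those between PAX3-FKHR/GFP and GFP- cells were -0.57 and 0.16. Whether Hes5 and Lfng differed from each other in these comparisons was not tested, nor was any part of the RBPJ letters in them.

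A further 43 pathway genes were read, from receptors to proteins of Notch turnover. Between PAX3-FKHR/GFP and GFP/+ cells 0 were called by limma, with 6 at an unadjusted p under 0.05 (11.1% of all genes) and 0 by the local pooled error test. In each of the comparisons with GFP- cells 2 were called lower and 0 higher, a share near that of all genes called lower (5.05% and 5.2%). At an unadjusted p under 0.05 there were 14 and 13 of the 43 genes, where 24.4% and 22.6% of all genes passed. The median log2 differences of the 43 genes were between -0.05 and 0.00.

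Mfng, which encodes manic fringe, a relative of lunatic fringe, had the largest difference. Its log2 means were 6.24 in PAX3-FKHR/GFP, 6.25 in GFP/+ and 7.69 in GFP- cells. It was 2.71-fold lower in GFP/+ (-1.44, SE 0.073, limma adjusted p = 7.73e-07) and 2.73-fold lower in PAX3-FKHR/GFP cells (-1.45, SE 0.078, adjusted p = 2.45e-07) than in GFP- cells. The GFP positive groups overlapped.

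Of the receptor genes Notch1 (means 9.72, 9.57 and 9.43 in PAX3-FKHR/GFP, GFP/+ and GFP- cells) and Notch2 (9.54, 9.36 and 9.24) were not called in any comparison. Notch3 (8.19, 8.28 and 8.62) passed the test against GFP- cells in both GFP positive groups but not the fold limit (-0.34 and -0.43, limma adjusted p = 0.00518 and 0.00413). Notch4, known from endothelium, was lower in GFP/+ than in GFP- cells (-0.61, SE 0.091, limma adjusted p = 0.00173) on its brightest probe set, with means of 4.89 and 5.51. It was under the fold limit in PAX3-FKHR/GFP cells (-0.43, limma adjusted p = 0.0118). The other Notch4 probe sets, with means of 3.49 to 3.67, gave 0.05 and 0.14 between GFP/+ and GFP- cells and were not called.

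Fhl1, which encodes a LIM domain protein with an isoform that binds RBPJ, stood lower with PAX3-FKHR than in GFP- cells (-0.82, SE 0.081, limma adjusted p = 4.18e-05). Its difference between PAX3-FKHR/GFP and GFP/+ cells, -0.49 (limma adjusted p = 0.0127), missed the fold limit narrowly. It was called when the arrays were quantile normalized again (-0.53) or PAX3-FKHR/GFP replicate 3 was left out (-0.53). The dimmer Fhl1 probe set, with means of 3.68 to 3.71, gave -0.03 in each of these comparisons and was not called. The study lists Fhl1 as lowered with PAX3-FKHR in somites, limb buds or both. Hes6, a relative of Hes1, went the other way between PAX3-FKHR/GFP and GFP/+ cells. Its difference of 0.43 passed the test (limma adjusted p = 0.0207) but not the fold limit. Rbpj, Maml1, Maml2 and Snw1, the 4 genes measured for the nuclear complex, kept within -0.09 and 0.12 in all 3 comparisons. Maml3 was also listed but not measured.

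**Figure D3:**
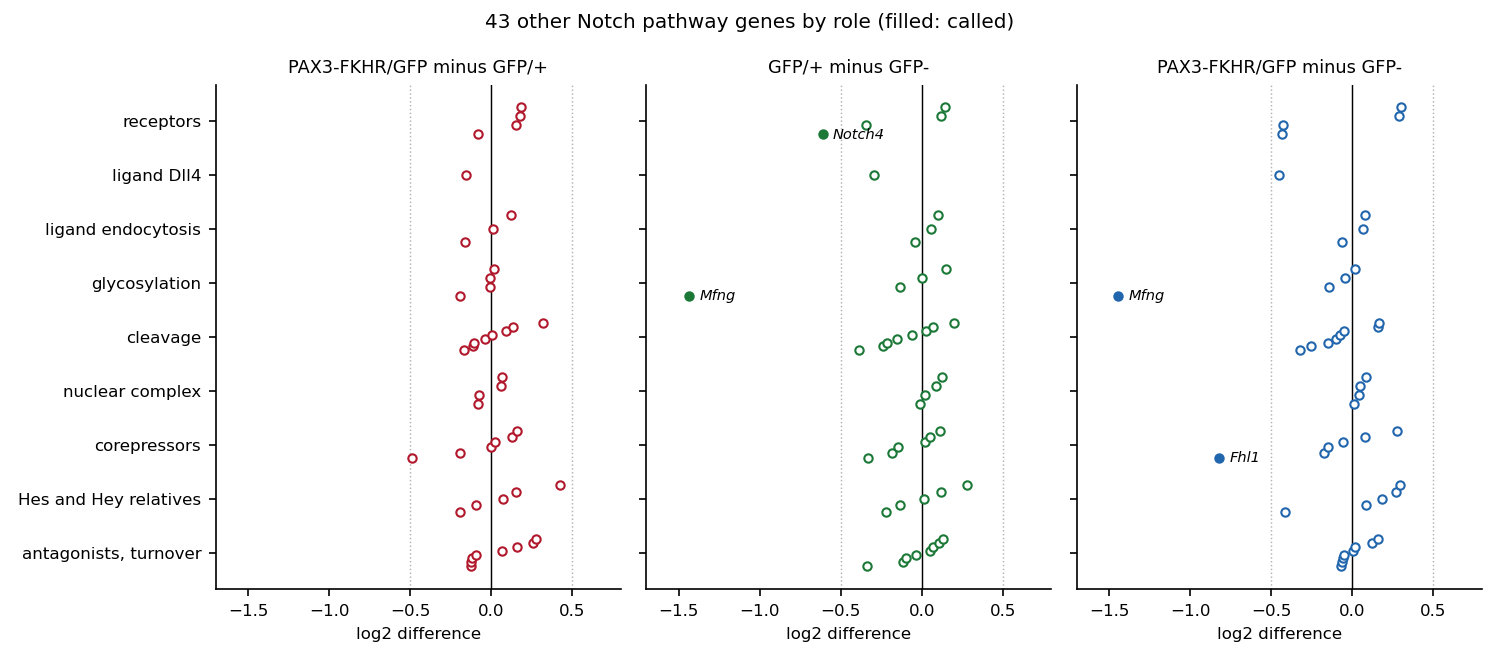
Log2 difference between groups for 43 further genes of the Notch pathway, by role, in the 3 comparisons. Each point is a gene read from its brightest probe set, filled points were called, and dotted lines mark the log2 limit of 0.5. Mfng (-1.44 and -1.45), Notch4 (-0.61) and Fhl1 (-0.82) are the filled points, all below 0.

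Other cell types moved with the GFP groups. Of 8 endothelial markers 6 were lower in GFP/+ than in GFP- cells, as were 5 of 6 ectoderm, 5 of 5 primitive erythroid and 3 of 7 neural progenitor markers. The mean log2 value over the endothelial list ran from 5.19 to 5.29 in GFP/+ and from 6.10 to 6.16 in GFP- samples. That over the ectoderm list was 5.13 to 5.24 against 8.15 to 8.24, and that over the neural progenitor list 7.08 to 7.16 against 7.51 to 7.58. The erythroid list stood at 6.45 to 6.53 against 11.04 to 11.09. PAX3-FKHR/GFP samples were at 5.19 to 5.22 for endothelium, 5.22 to 5.31 for ectoderm, 6.98 to 7.20 for neural progenitors and 6.72 to 6.79 for erythroid cells. These lists stood highest in GFP- cells, as Dll3, Jag1, Jag2, Hes5, Nrarp, Mfng and Notch4 did. Higher in GFP/+ than in GFP- cells, as Hes1 and Heyl were, stood 8 of 9 dermomyotome, 6 of 8 muscle differentiation, 3 of 5 neural crest and 4 of 5 sclerotome markers. Means over the muscle differentiation list were 8.17 to 8.32 in GFP/+, 6.69 to 6.85 in PAX3-FKHR/GFP and 5.47 to 5.58 in GFP- samples. Those over the sclerotome list had the same order (7.35 to 7.43, 6.98 to 7.11 and 5.99 to 6.03). The group means of Heyl's brightest probe set also ran in this order, but its GFP positive groups were not called apart. The part of these cell types in the differences of the Notch genes was not tested. Markers of the segmenting mesoderm, where Dll1, Dll3 and Lfng are best known, had list means of 3.94 to 4.11 in all 9 samples. These means lay below the median of every array. Of the 5 markers read, 0 were called in any comparison (0, 1 and 0 at an unadjusted p under 0.05). Ripply1 and T were also listed, but no probe set was matched to either alone, so they were not read. The study lists T as lowered with PAX3-FKHR in both somites and limb buds.

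Between PAX3-FKHR/GFP and GFP/+ cells, where Hes1 alone of the 10 was called, 8 of 8 markers of muscle differentiation were lower with PAX3-FKHR. Of 9 dermomyotome markers 4 were higher and 2 lower, and Pax3, the targeted gene itself, was among the lower ones. Of 5 sclerotome markers 2 were lower, with list means of 6.98 to 7.11 against 7.35 to 7.43 in GFP/+ samples. Of 7 neural progenitor markers 1 was higher and 1 lower, and 1 of 5 primitive erythroid markers was higher. Of 5 neural crest markers 0 were called, with 3 at an unadjusted p under 0.05 and list means of 8.21 to 8.35 against 7.94 to 8.11. Of 8 endothelial markers 0 were called and 0 passed an unadjusted p under 0.05. The part of these changes in the rise of Hes1 was not tested.

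**Figure D4:**
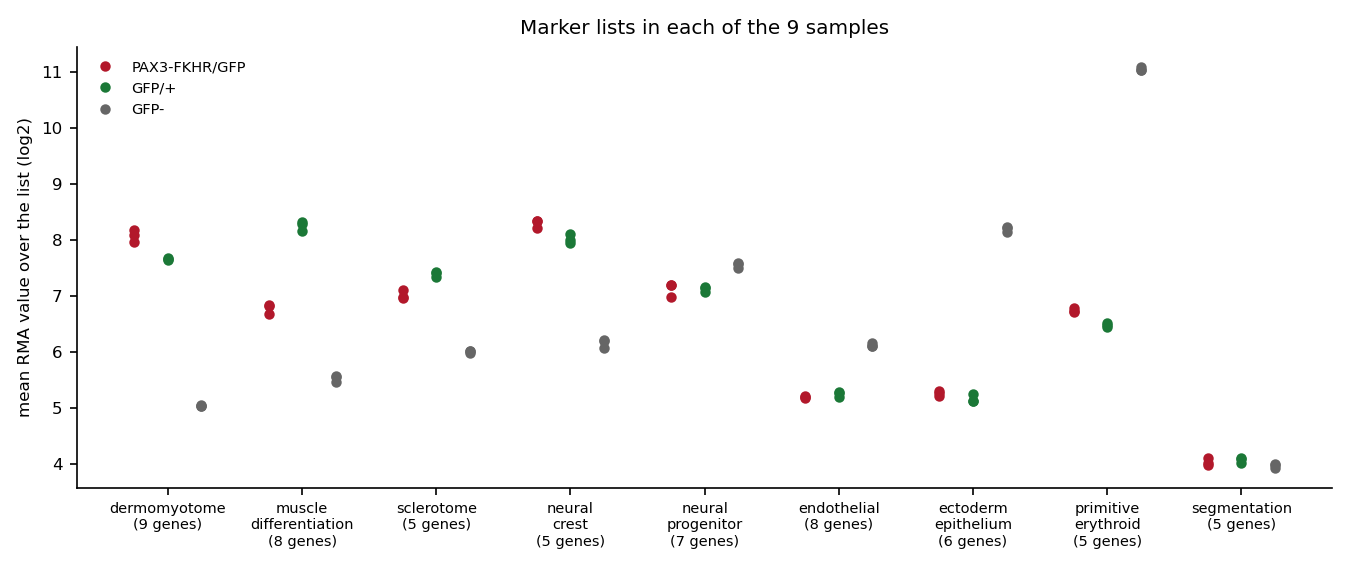
Mean log2 RMA value over each marker list in each of the 9 samples, 3 points per group. GFP- samples lie lowest for the dermomyotome (5.03 to 5.05) and highest for endothelium, ectoderm and erythroid cells, PAX3-FKHR/GFP samples lie below GFP/+ samples for muscle differentiation, and segmentation markers are near 4 throughout.

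The genes whose pattern over the 9 samples was most like that of Hes1, among 690 genes with group means at least 1 apart on the log2 scale, were Sec1, a fucosyltransferase gene (Pearson r = 0.996), Ccbe1, which encodes a secreted matrix protein (0.995), and Lbx1, a homeobox gene of migrating muscle progenitors (0.995). Those most like Heyl were Pax1, a paired-box gene of the sclerotome (0.995), Pknox2, a homeobox gene (0.993), and Meox1, a homeobox gene of the somite (0.992). Each r is over 9 points that fall into 3 groups and stands as a description. Lbx1 had means of 7.20, 5.78 and 4.42 in PAX3-FKHR/GFP, GFP/+ and GFP- cells, a descent in the order of Hes1. Pax1 had 8.47, 9.04 and 5.95, an order shared with the means of Heyl's brightest probe set, whose GFP positive groups were not called apart.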

How the data were processed

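GFP positive and negative cells were sorted from pooled interlimb somites, and amplified RNA was hybridized to Affymetrix mouse arrays. The authors deposited log2 values made with RMA (named in the submitters' processing notes, with no version), which corrects background, quantile normalizes and summarizes probe sets. Which arrays were normalized together is not given in the sources used here, and RMA would hide a change common to every transcript of a group. Groups follow the labels, and the absence calls were left aside. Of 45101 probe sets 64 controls were left out. The platform annotation gave 34945 of those tested 1 symbol, 932 several and 9160 no name here. Probe sets with 1 symbol were read for genes.

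Each comparison was a limma 3.58.1 fit (R 4.3.3, eBayes with an intensity trend) of its 6 samples, two-sided, with Benjamini-Hochberg adjustment over 45037 probe sets. Intervals are 95% intervals, and the fit was tested on simulated data. The study's local pooled error test, other normalizations, a filter on dim probe sets, other fold limits, the mean over a gene's probe sets, a replicate block and leaving out each array were run as alternatives. The members and all lists were chosen with earlier results of these data known. The text names all 10 members, Pax3, the further pathway genes that were called, the 4 receptors, and the 3 genes most like Hes1 and like Heyl. It also names Hes6, the genes of the nuclear complex and the segmentation markers that were not read. Promoter windows are from a RefSeq table of GRCm38.p6 (Python 3.11.15).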

Additional observations from a re-analysis of the deposited data

How the results depend on the processing

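Every call of Hes1 and Heyl was kept under every alternative but a log2 limit of 1, where Hes1 was called between PAX3-FKHR/GFP and GFP- cells alone. Under that limit the called members were 0, 1 and 2 genes and 0, 2 and 3 probe sets for PAX3-FKHR/GFP against GFP/+, GFP/+ against GFP- and PAX3-FKHR/GFP against GFP- cells. The mean over a gene's probe sets gave 4 member genes in the second. Of the further pathway genes, quantile normalization repeated called 1 in the first comparison, leaving out an array 0 to 1 (Fhl1), and no fold limit 2. In the second the filter on dim probe sets, the mean over probe sets and the log2 limit of 1 each gave 1 and no fold limit 6. In the last the mean and the log2 limit of 1 each gave 1 and no fold limit 7. The cause was not tested. Of single members, 443 values kept direction and side of the threshold under an alternative, 26 lost a call, 1 gained it and 4 changed sign, all of them uncalled. Hes5 between the GFP positive groups lay between -0.11 and 0.0049 without 1 array, and Dll1 between GFP/+ and GFP- cells between -0.0532 and 0.0894. The filter on dim probe sets left Jag2 and Lfng untested.

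Same-numbered samples correlated at -0.10 to 0.10 in their deviations from the group means, and differently numbered ones at -0.11 to 0.12. With so few arrays these values cannot tell whether same-numbered samples came from the same pools. With a replicate block the called member genes were 1, 7 and 8, the same counts as without it.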
